A study of Homo sapiens with 48 samples.

Results

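The IGF binding proteins IGFBP1 to IGFBP6 are secreted carriers of the insulin-like growth factors. They were followed here in breast cancer cells that signal through a single insulin receptor substrate (IRS) adaptor. The members were all probe sets of the Affymetrix HG-U133 Plus 2.0 array that the platform annotation ties to 1 of these 6 gene symbols alone. This gave 13 of 54613 non-control probe sets, or 6 of 19775 genes, with 2 for IGFBP1, 1 for IGFBP2, 2 for IGFBP3, 1 for IGFBP4, 6 for IGFBP5 and 1 for IGFBP6.

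The cells were T47D-YA, a variant of the T47D breast cancer line that lacks IRS proteins but keeps the type I IGF receptor, selected to express human IRS-1 (clones #10 and #20) or human IRS-2 (clones #1 and #6). All 4 clones were grown in medium with G418 and, to hold the transgene, hygromycin B, and spent 24 h without serum, in serum-free medium (SFM), ahead of treatment. Per the study's methods the control dishes then received SFM with fibronectin alone (called SFM here) and the treated dishes IGF-I, and RNA was taken 4 h or 24 h later. The 16 groups held 3 arrays each, lettered A, B and C, 48 in all, and the IRS-null parent was not analysed here. Each line was 1 selected clone, so an IRS isoform was represented by 2 clones, and the labels do not say whether the 3 arrays of a group came from separate cultures. All p-values across probe sets therefore measure only the spread between these arrays, which may be technical.

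IGFBPs bind IGF-I and IGF-II with high affinity, hold them away from the IGF receptor and prolong their life in blood and tissue, and proteases that cut IGFBPs free the ligand again. IGFBP3 is the main carrier in serum, where it forms a complex with the acid-labile subunit IGFALS, and IGFBP5 can form the same kind of complex and also binds extracellular matrix. IGFBP4 is cleaved by the protease PAPPA, which the stanniocalcins STC1 and STC2 inhibit, and IGFBP6 prefers IGF-II. IGFBP1 is a liver and decidual protein that insulin represses. In breast cancer cells IGFBP2, IGFBP4 and IGFBP5 are common products of estrogen receptor positive lines.

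IGFBP2 and IGFBP5 are next to each other on chromosome 2, and IGFBP1 and IGFBP3 are next to each other on chromosome 7. IGFBP4 lies on chromosome 17 and IGFBP6 on chromosome 12. The 250 bases before the annotated start are shown for the 3 genes called between clones on SFM arrays, whose signals followed the same order of clones. They are the RefSeq sequences on GRCh38.p14, 5′ to 3′ on the strand of the gene, for IGFBP2 (chr2:216632578-216632827, plus strand, the outermost of 3 annotated starts), IGFBP4 (chr17:40443200-40443449, plus strand) and IGFBP5 (chr2:216695550-216695799, minus strand). Capitals mark exact matches to a GC box core or a TATA box core on either strand:
IGFBP2: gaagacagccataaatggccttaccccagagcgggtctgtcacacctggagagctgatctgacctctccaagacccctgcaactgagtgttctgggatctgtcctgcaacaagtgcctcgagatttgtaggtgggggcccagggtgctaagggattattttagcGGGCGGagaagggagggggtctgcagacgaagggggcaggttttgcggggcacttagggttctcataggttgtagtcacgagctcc
IGFBP4: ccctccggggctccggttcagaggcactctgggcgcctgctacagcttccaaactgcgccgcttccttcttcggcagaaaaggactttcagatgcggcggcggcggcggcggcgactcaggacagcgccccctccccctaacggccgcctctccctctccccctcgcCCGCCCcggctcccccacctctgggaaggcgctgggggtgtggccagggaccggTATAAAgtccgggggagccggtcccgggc
IGFBP5: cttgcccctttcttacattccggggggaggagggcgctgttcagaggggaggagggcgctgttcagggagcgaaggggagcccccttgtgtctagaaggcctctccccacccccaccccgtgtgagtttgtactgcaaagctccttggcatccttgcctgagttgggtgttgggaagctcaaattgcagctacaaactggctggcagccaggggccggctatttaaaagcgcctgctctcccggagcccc

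Exact matches were counted on both strands for 4 short words, and they did not overlap. The GC box core GGGCGG was found in 4 of the 5 member windows in the table (IGFBP1 has no entry) and in 42.6% of all 35116 windows of this length. The TATA box core TATAAA was present in IGFBP4 alone, 29 bases before the start, and in 10.7% of all windows. The forkhead word GTAAACA was present in IGFBP6 alone, against 2.98% of all windows. The E-box CACGTG was in none of the 5, against 6.35% of all windows. The printed IGFBP5 window held none of the 4 words, so the 3 promoters shared no exact match among the words searched. A match describes letters and is not a binding site.

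Array signals were log2 values from GC-RMA, a background and quantile normalization for Affymetrix arrays. The medians of the 48 arrays lay between 7.39 and 7.51, and arrays of a group correlated at 0.994 to 0.998 across all probe sets. The transgenes gave no check of the labels in the direction of the clone names. An IRS1 probe set (204686_at) was 5.00-fold higher on SFM arrays of the clones labelled IRS-2, with means of 8.18 against 5.85, while the other IRS1 probe sets differed by 0.17 and 0.35 and the IRS2 probe sets by -0.02 and -0.41 (IRS-2 minus IRS-1 label, log2). Whether these probes lie within the transgenes is not given in the sources used here, and every direction below is between clones as labelled. The 8 luminal markers measured had mean signals of 10.4 to 14.8, at or above the 90.1 percentile of all probe sets, while 4 basal, 6 fibroblast and 3 leukocyte markers had means of 5.87 to 9.62, 4.48 to 10.03 and 6.07 to 7.39.

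The members ranged from bright to dim, and the table holds no detection calls. For each gene the brightest probe set, by its mean across the 48 arrays, is called leading. The IGFBP2 probe set (202718_at) averaged 10.97, at the 93.7 percentile of all probe sets, and IGFBP5 (211959_at) one of 8.82, at the 73.9 percentile. IGFBP4 (201508_at) averaged 8.25, IGFBP6 (203851_at) 7.79 and IGFBP3 (210095_s_at) 7.01. The IGFBP3 value is below the array medians and below the T-cell marker CD3D (7.39), so a level of this size need not mean a transcript was detected, and 5 of the 6 IGFBP5 probe sets averaged 5.77 to 7.62. The fibroblast marker DCN (8.50) and the basal marker KRT5 (8.33) averaged above IGFBP4 and IGFBP6, whose mean level alone does not show detection either. IGFBP1 was dim on both probe sets, with means of 5.28 (237989_at) and 4.02 (205302_at), and the second was under 5 on all 48 arrays. Probe sets differ in how brightly they bind, so these signals do not rank the genes by transcript amount. A filter on dim probe sets, a log2 signal of at least 5 on at least 3 arrays, kept 12 of the 13.

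The members fell into genes that spread widely and genes that were flat. The means of the 16 groups spanned 2.71 log2 units for IGFBP5, 1.64 for IGFBP2 and 1.19 for IGFBP4, but 0.56 for IGFBP6, 0.32 for IGFBP1 and 0.21 for IGFBP3. The wide spans lay between clones and, for IGFBP5, between time points, as the plot of every array shows. The IGF-I and SFM arrays of a clone and time lay close together.

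**Figure D1:**
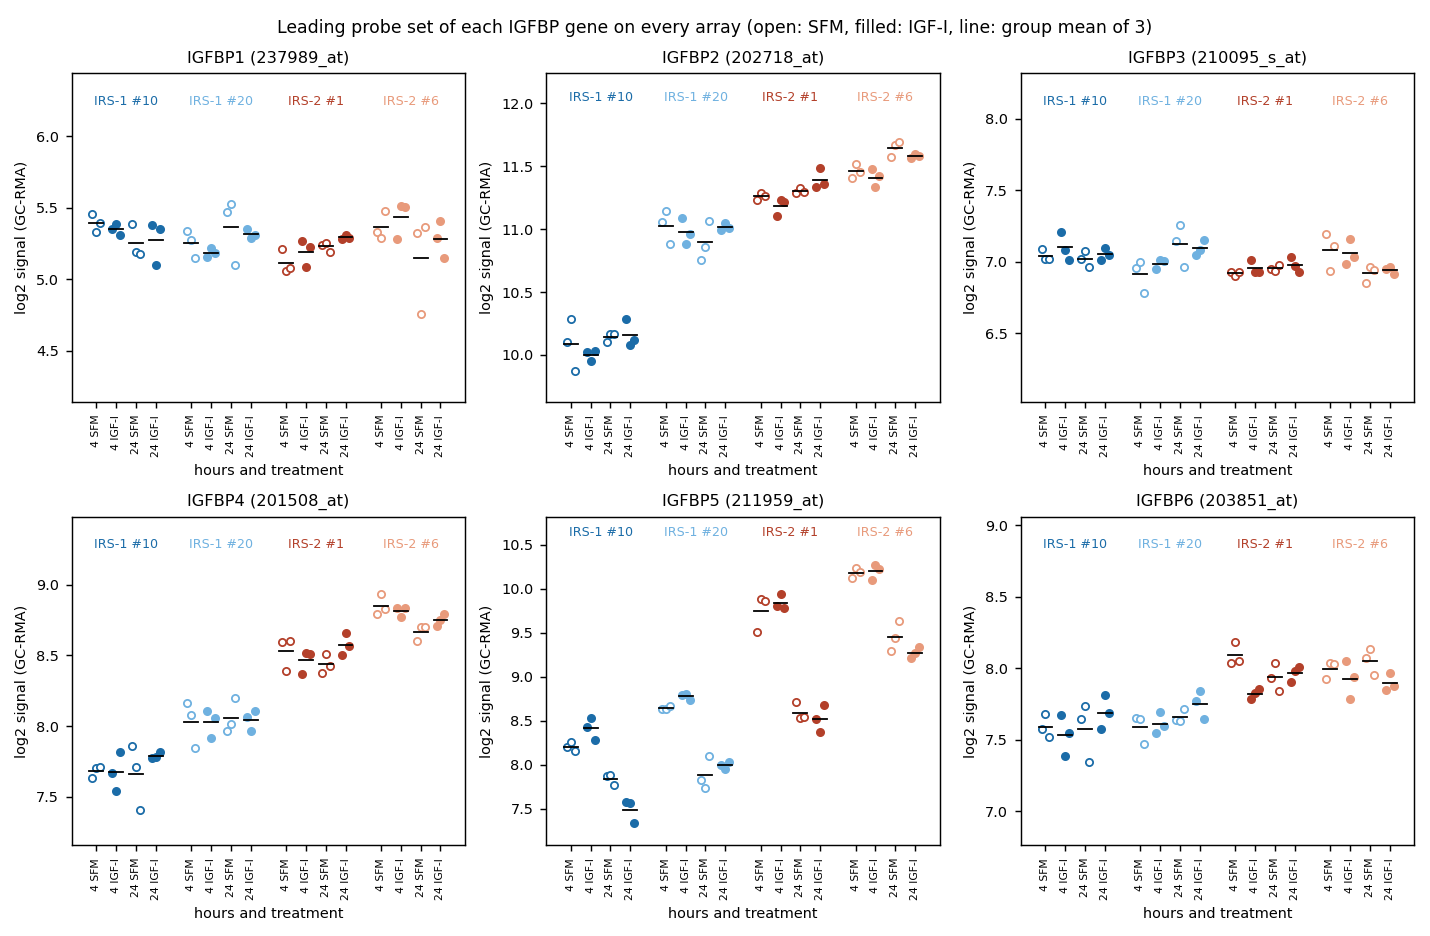
Log2 GC-RMA signal of the leading probe set of each IGFBP gene on all 48 arrays, by clone, hours and treatment (open circles SFM, filled circles IGF-I, black line the mean of 3 arrays, y axes differ). IGFBP2, IGFBP4 and IGFBP5 step up from clone #10 to #20, #1 and #6, IGFBP5 is lower at 24 h than at 4 h in each clone, and IGFBP1 and IGFBP3 are flat.

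The first question was whether IGF-I moved its own binding proteins. No IGFBP probe set was called in any of the 8 comparisons of IGF-I with SFM, where a call needed at least 1.5-fold together with a limma p, adjusted by Benjamini-Hochberg, below 0.05. Of all probe sets, clone #10 had 0.0623% called at 4 h and 0.251% at 24 h, clone #20 had 0.11% and 0.251%, clone #1 had 0.108% and 0.0476%, and clone #6 had 0.223% and 0.0787%. With calls this rare, 0 of 13 is near the background. At an unadjusted p under 0.05, 9 of the 104 member tests passed (8.65%, against 14.3% over all probe sets), and the methods' t-test with its fold threshold also gave 0. All 104 of the 95% intervals lay within 1.5-fold, with bounds from -0.53 to 0.39. They rest on the spread between these arrays, which may be technical, so they may not bound the change across cultures. For dim probe sets such as those of IGFBP1 they describe a signal that need not be transcript. The median size of a member's difference was 0.06 against 0.07 over all probe sets. The IGF-I and SFM arrays did not overlap in 20 of the 104 member tests (19.2%), against 18.7% over all probe sets.

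**Figure D2:**
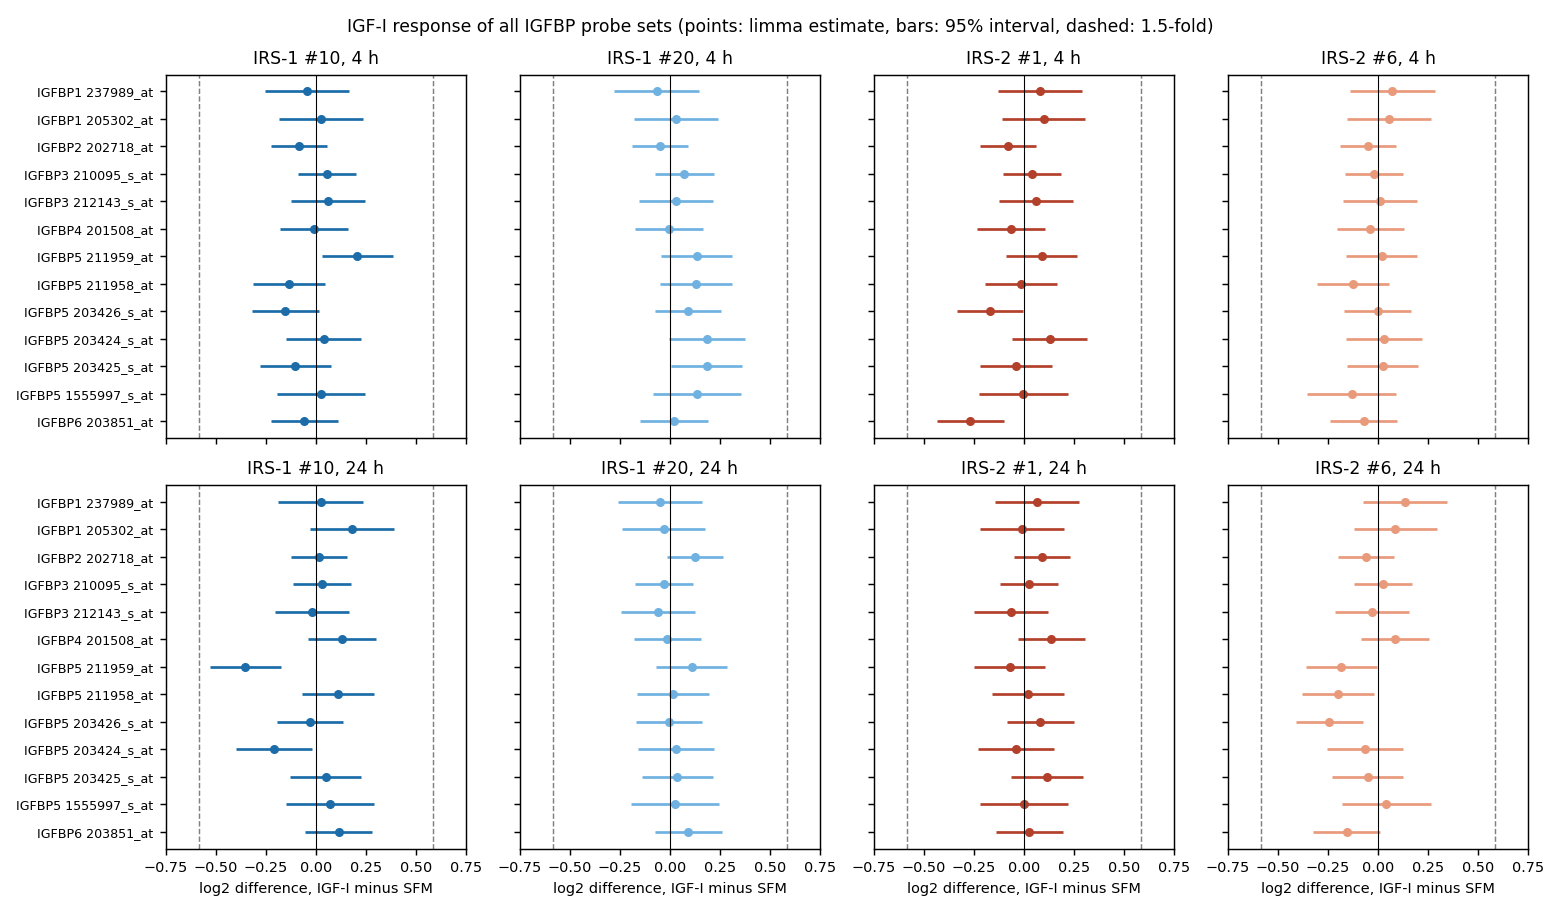
Log2 difference, IGF-I minus SFM, of all 13 IGFBP probe sets in each clone at 4 h (top) and 24 h (bottom); points are limma estimates, bars 95% intervals and dashed lines 1.5-fold. No interval reaches a dashed line, and the point farthest from 0 is IGFBP5 211959_at in IRS-1 #10 at 24 h, at -0.35.

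IGFBP5, the matrix-binding member, came closest to a call. In IRS-1 #10 at 24 h its 211959_at signal was 7.88, 7.88 and 7.76 on SFM arrays and 7.57, 7.56 and 7.33 on IGF-I arrays. Every IGF-I array was below every SFM array, and the difference of -0.35 (SE 0.088, 1.28-fold) had an adjusted p of 0.00595 by limma, so it passed the p but not the fold threshold. It was 1 of 13 members past the adjusted p, against 8.01% of all probe sets. At 4 h in the same clone the order was the opposite, with SFM arrays at 8.20, 8.26 and 8.15 and IGF-I arrays at 8.42, 8.53 and 8.28 (difference 0.21, adjusted p 0.279). The 24 h difference was 0.11 in clone #20, -0.07 in clone #1 and -0.18 in clone #6, none past the adjusted p. The other IGFBP5 probe sets in IRS-1 #10 at 24 h ran from -0.21 to 0.11. The lowest, 203424_s_at, was 6.79, 6.68 and 6.76 on IGF-I arrays, all below its lowest SFM array at 6.88 (adjusted p 0.191 by limma).

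IGFBP6, the IGF-II preferring member, had its farthest value in IRS-2 #1 at 4 h. Its signal there was 8.04, 8.18 and 8.05 on SFM arrays and 7.79, 7.83 and 7.86 on IGF-I arrays, which do not overlap. The difference of -0.27 (SE 0.083) had an adjusted p of 0.103 by limma. At 24 h in the same clone the difference was 0.03, and in IRS-2 #6 it was -0.07 at 4 h and -0.16 at 24 h.

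IGFBP2 differed by -0.09 to 0.13 over the 8 comparisons and IGFBP4 by -0.06 to 0.14, with 3 of 8 differences above 0 for each. The lowest adjusted p was 0.383 for IGFBP2 and 0.416 for IGFBP4. The serum carrier IGFBP3 differed by -0.03 to 0.07 on its leading probe set and by -0.07 to 0.06 on 212143_s_at. The dim IGFBP1 probe sets gave -0.07 to 0.13 (237989_at) and -0.03 to 0.18 (205302_at). No interval of these 4 genes went past -0.28 or 0.39.

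Differences in the IGF-I response between clones, isoforms and times were then tested directly. No member was called in any of the 8 contrasts. At 4 h the share of all probe sets called was 0.0293% for IRS-2 against IRS-1 clones, 0.0256% for IRS-1 #20 against #10 and 0.00183% for IRS-2 #6 against #1. At 24 h the shares were 0.0586%, 0.134% and 0%, and for 24 h against 4 h they were 0.203% in the IRS-1 clones and 0.146% in the IRS-2 clones. At an unadjusted p under 0.05, 9 of these 104 tests passed (8.65%, against a mean of 9.22% over all probe sets). The adjusted p was under 0.05 once, for IGFBP5 211959_at, whose response in the IRS-1 clones was 0.29 lower at 24 h than at 4 h (difference -0.29, SE 0.088, adjusted p 0.035 by limma, under 1.5-fold). This was 1 of 13 members, against 5.99% of all probe sets. The IRS-1 clones did not share it alike. In clone #10 the IGF-I and SFM means were 8.41 and 8.21 at 4 h and 7.49 and 7.84 at 24 h. In clone #20 they were 8.78 and 8.64 at 4 h and 7.99 and 7.88 at 24 h, with IGF-I higher at both times.

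The clones differed in their binding proteins before any IGF-I was added. On SFM arrays of both times, IGFBP2, IGFBP4 and IGFBP5 had higher signals in both clones labelled IRS-2 than in either IRS-1 clone, by 1.84-fold, 1.70-fold and 2.55-fold between isoform means on their leading probe sets. These 3 of 13 member probe sets (23.1%) were called higher, against 2.51% of all probe sets, and none was called lower. Without the fold threshold 10 of 13 members passed the adjusted p, against 62.6% of all probe sets, a share close to the background. The median member difference was 0.32, against 0.005 over all probe sets. Both figures lean on IGFBP5, which holds 6 of the 13 probe sets, all higher in the IRS-2 clones. The leading probe sets of IGFBP1 and IGFBP3 went the other way, by -0.10 and -0.06.

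IGFBP2, a carrier abundant in epithelial tumors, stood lowest in IRS-1 #10. Over 6 SFM arrays its signal ran from 9.88 to 10.28 in clone #10 (median 10.13), from 10.76 to 11.15 in clone #20 (median 10.97), from 11.23 to 11.33 in clone #1 (median 11.29) and from 11.40 to 11.69 in clone #6 (median 11.55). The ranges of the 4 clones do not overlap. The isoform difference was 0.88 (SE 0.035, adjusted p 1.07e-26 by limma). The gap between the IRS-1 clones themselves was 0.85 (SE 0.049), about as large, and the gap between the IRS-2 clones was 0.27. IRS-2 #1 was above IRS-1 #20 by 0.32 (adjusted p 2.26e-07), which is under 1.5-fold.

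IGFBP4, the PAPPA substrate, kept the same order of clones. Its signal was 7.41 to 7.86 in clone #10 (median 7.71), 7.84 to 8.20 in clone #20 (median 8.05), 8.37 to 8.60 in clone #1 (median 8.47) and 8.60 to 8.93 in clone #6 (median 8.75). All arrays of the IRS-2 clones were above all arrays of the IRS-1 clones, while arrays of neighbouring clones of one isoform overlapped at the edge. The isoform difference was 0.76 (SE 0.042, adjusted p 3.32e-21 by limma). The clones of one isoform differed by 0.37 (IRS-1) and 0.28 (IRS-2), both past the adjusted p and under 1.5-fold.

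IGFBP5 had the widest gap on its leading probe set. Means over both times were 8.02 in clone #10, 8.26 in clone #20, 9.17 in clone #1 and 9.82 in clone #6. The isoform difference was 1.35 (SE 0.044, adjusted p 4.69e-30 by limma), and IRS-2 #6 was above IRS-2 #1 by 0.65 while IRS-1 #20 was above IRS-1 #10 by 0.24. The pooled ranges overlap because the signal also differed between times. Within a time they do not overlap between isoforms. At 4 h the IRS-1 arrays lay between 8.15 and 8.66 and the IRS-2 arrays between 9.51 and 10.24, and at 24 h they lay between 7.74 and 8.10 and between 8.53 and 9.64.

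IGFBP6 had a smaller gap with little spread inside an isoform. Its SFM signal was 7.34 to 7.74 in the 12 IRS-1 arrays (median 7.64) and 7.84 to 8.18 in the 12 IRS-2 arrays (median 8.04), with no overlap. The isoform difference of 0.41 (SE 0.042, 1.33-fold, adjusted p 3.29e-12 by limma) was under the fold threshold. The clones of one isoform differed by 0.04 (IRS-1) and 0.01 (IRS-2). Among the 4 leading probe sets whose isoform difference was past the adjusted p, only that of IGFBP6 had both gaps within an isoform under 0.1. The trait was not particular to IGFBP6 among all member probe sets. IGFBP3 212143_s_at and IGFBP5 203425_s_at and 203426_s_at, also past the adjusted p, had both gaps under 0.1 too.

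IGFBP3 and IGFBP1 differed little. The leading IGFBP3 probe set was 7.02 in the IRS-1 and 6.97 in the IRS-2 clones, and 212143_s_at was 0.17 lower in the IRS-2 clones (adjusted p 0.00103, under 1.5-fold). The leading IGFBP1 probe set was 5.32 in the IRS-1 and 5.21 in the IRS-2 clones.

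With 2 clones an isoform, clone and isoform can be separated only weakly. The exact permutation test over the 4 clone means gave a two-sided p of 0.333 for each of the 6 genes. This is the smallest that 6 assignments allow, so the test cannot decide between clone and isoform. The p of 0.333 requires only that the clone means of the isoforms do not overlap. They did not overlap even for IGFBP1 and IGFBP3, which differed by only -0.10 and -0.06. The share of all probe sets with such an order was not computed. Of the RNA quality probes, those of ACTB moved with the clone order as well. The 3′ minus 5′ signal of the ACTB control probe sets on SFM arrays averaged 0.24 in clone #10, 0.20 in clone #20, 0.15 in clone #1 and 0.11 in clone #6. That of GAPDH averaged -0.061, -0.105, -0.103 and -0.139 in these clones, so #20 and #1 did not keep the order. The part of RNA quality in the IGFBP order was not tested. Of the 21 cell type markers measured, 1 was called at the baseline, near the background of 6.37% of all probe sets. It was the fibroblast collagen COL1A1, lower in the IRS-2 clones (9.66 against 10.32, difference -0.66, adjusted p 7.69e-20 by limma). Its SFM means at 4 h and 24 h were 9.89 and 10.02 in clone #10 and 10.73 and 10.65 in clone #20. They were 9.54 and 9.71 in clone #1 and 9.49 and 9.93 in clone #6, so the IRS-1 clones also lay apart. The myoepithelial actin ACTA2 was higher by 0.43 in the IRS-2 clones, under 1.5-fold. The 8 luminal markers differed by -0.32 (GATA3) to 0.24 (ESR1), IRS-2 minus IRS-1 clones, all under 1.5-fold. The mean log2 signal of the 6 fibroblast markers was 7.58 to 7.88 on IRS-1 and 7.45 to 7.63 on IRS-2 arrays, and that of the 4 basal markers had medians of 7.78 and 7.94. The part of these markers in the IGFBP differences was not tested.

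Over the 6 pairs of clones 14 of 78 member tests were called, all higher in the clone named first below. For IRS-1 #20 over #10 this was 1 of 13 members (1.35% of all probe sets were called higher), for IRS-2 #1 over IRS-1 #10 it was 3 (3.82%), and for IRS-2 #6 over IRS-1 #10 it was 4 (3.83%). For IRS-2 #1 over IRS-1 #20 it was 1 (3.84%), for IRS-2 #6 over IRS-1 #20 it was 4 (2.79%), and for IRS-2 #6 over IRS-2 #1 it was 1 (0.449%). IGFBP5 made up 7 of the 14, IGFBP2 4 and IGFBP4 3, and IGFBP1, IGFBP3 and IGFBP6 made none. The farthest apart were IRS-2 #6 and IRS-1 #10, with 3.47-fold for IGFBP5, 2.71-fold for IGFBP2 and 2.13-fold for IGFBP4. Pairs that share a clone share its arrays, so their calls are not independent.

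The 6 IGFBP5 probe sets told different sizes. The SFM isoform difference was 1.35 on 211959_at, 0.45 on 211958_at, 0.38 on 1555997_s_at, 0.32 on 203424_s_at, 0.14 on 203426_s_at and 0.12 on 203425_s_at. All were higher in the IRS-2 clones and past the adjusted p, but only 211959_at was past 1.5-fold. Across the 16 group means the other probe sets correlated with 211959_at at 0.67 to 0.94, as a description over groups that share clones. When the 6 were averaged, the IGFBP5 isoform difference was 0.46 (adjusted p 1.5e-21 by limma), under 1.5-fold. The size of every IGFBP5 difference given here thus depends on the probe set.

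**Figure D3:**
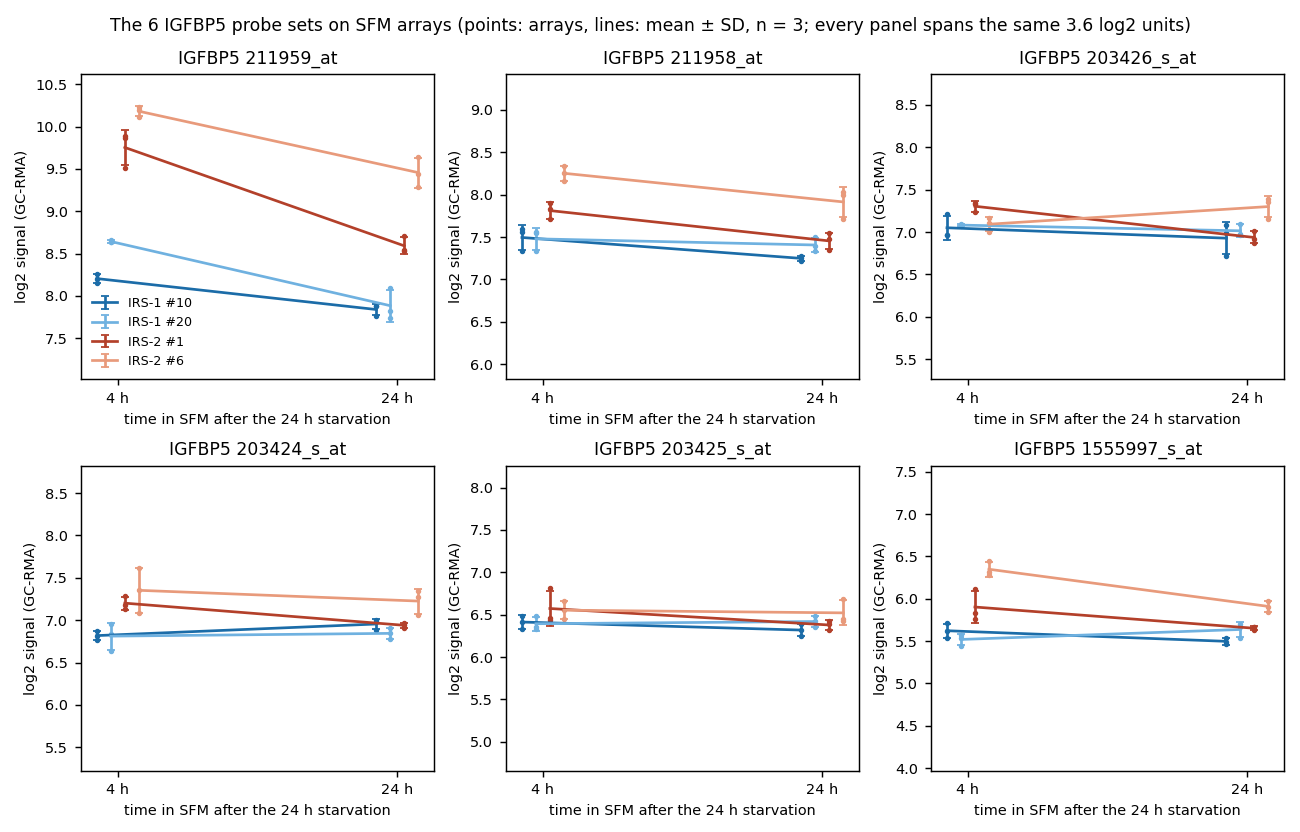
Log2 GC-RMA signal of the 6 IGFBP5 probe sets on SFM arrays of each clone at 4 h and 24 h (points arrays, lines mean ± SD, n = 3, each panel spanning the same height in log2 units). The gap between IRS-2 and IRS-1 clones and the drop from 4 h to 24 h are widest on 211959_at and narrow on 203425_s_at.

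Time in SFM was the other axis on which IGFBP5 varied. The 211959_at signal was lower at 24 h than at 4 h in all 4 clones, past the adjusted p in each and past 1.5-fold in 3. In IRS-2 #1 it was 9.51, 9.89 and 9.86 at 4 h and 8.71, 8.53 and 8.54 at 24 h, a fall of 2.24-fold (difference -1.16, SE 0.088, adjusted p 9.33e-14 by limma). In IRS-2 #6 it was 10.12, 10.24 and 10.19 and then 9.29, 9.44 and 9.64 (difference -0.73, adjusted p 3.32e-08). The times do not overlap in either IRS-2 clone.

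In IRS-1 #20 IGFBP5 was 8.63, 8.63 and 8.66 at 4 h and 7.82, 7.74 and 8.10 at 24 h (difference -0.76, adjusted p 1.68e-08 by limma). In IRS-1 #10 it was 8.20, 8.26 and 8.15 and then 7.88, 7.88 and 7.76, a difference of -0.37 with an adjusted p of 0.0185 that was under 1.5-fold. The times again do not overlap in either clone. Called lower were 0 of 13 members in IRS-1 #10, against 0.0165% of all probe sets, and 1 of 13 in each of clone #20 (0.584%), clone #1 (0.112%) and clone #6 (0.0861%). By adjusted p alone 1, 2, 3 and 3 of 13 members passed in these clones, against 1.83%, 20.8%, 5.33% and 12.8% of all probe sets.

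No other IGFBP5 probe set was called for time. The 211958_at differences ran from -0.36 to -0.07, with 2 of 4 past the adjusted p, those of 1555997_s_at from -0.44 to 0.12 and those of 203426_s_at from -0.37 to 0.21, with 1 of 4 past it in each. For 203424_s_at they ran from -0.26 to 0.14 and for 203425_s_at from -0.19 to 0.03, none past it. With the 6 probe sets averaged, the change was -0.12 in clone #20, -0.43 in clone #1 and -0.24 in clone #6, all under 1.5-fold. Of the other genes only IGFBP3 210095_s_at passed the adjusted p, with 0.21 in IRS-1 #20 (adjusted p 0.0335 by limma, under 1.5-fold).

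The IGF-I arrays, a separate set of samples, were examined for the same time difference after the SFM values had been seen. IGFBP5 211959_at was lower at 24 h in all 4 clones, with differences of -0.92 in clone #10, -0.78 in clone #20, -1.32 in clone #1 and -0.93 in clone #6, each called by limma. This was 1 of 13 members called lower in every clone, against 0.0604%, 0.721%, 0.218% and 0.256% of all probe sets in that order.

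Whether the SFM change itself differed between clones was tested for the 6 pairs, also after seeing the values. Only IGFBP5 211959_at was called, and in 1 pair. It was lower in IRS-2 #1 than in IRS-1 #10 (difference -0.80, SE 0.12, adjusted p 0.00018 by limma). That pair had 1 of 13 members called against 0.168% of all probe sets. The other pairs had 0 of 13, against 0.844% (IRS-1 #20 and #10), 0.306% (IRS-2 #6 and IRS-1 #10), 0.187% (IRS-2 #1 and IRS-1 #20), 1.88% (IRS-2 #6 and IRS-1 #20) and 0.117% (IRS-2 #6 and #1).

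The members also varied together to different degrees. Over the 16 group means, which share clones and so hold few independent points, Pearson's r was 0.93 between IGFBP2 and IGFBP4, 0.89 between IGFBP4 and IGFBP6, 0.82 between IGFBP4 and IGFBP5 and 0.70 between the chromosome neighbours IGFBP2 and IGFBP5. It was 0.81 between IGFBP2 and IGFBP6, 0.68 between IGFBP5 and IGFBP6 and 0.77 between the other neighbours, the flat IGFBP1 and IGFBP3. IGFBP1 and IGFBP3 each had a negative r with all the remaining members, from -0.48 (IGFBP2 and IGFBP3) to -0.12 (IGFBP1 and IGFBP4). Among the leading probe sets of 18808 genes with a mean of at least 5, the group means most like IGFBP2 were those of SYT13 (r 0.99), PAPSS2 (0.99) and SEPTIN10 (0.99). For IGFBP4 they were FBXO17 (0.98), TET1 (0.98) and AKAP12 (0.98), and for IGFBP5 they were ITPA (0.97), LOC100507634 (0.97) and FTSJ1 (0.97). The ITPA group means spanned only 10.95 to 11.45, so a like pattern is not a like size.

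The other genes of the IGF axis were taken from a list of 51, of which 49 were measured on a single-symbol probe set (IGF2 and PIK3CA were not). They comprise 2 ligands, 4 receptors, 10 adaptors, 20 partners and proteases, 10 proteins with related domains and 3 IGF mRNA binding proteins. IGF-I called 3 of their 392 tests (0.765%), all higher, against 0.0476% to 0.251% of all probe sets in the 8 comparisons. STC2, the PAPPA inhibitor, rose in IRS-1 #20 at 24 h by 1.22 (2.34-fold, adjusted p 4.77e-18 by limma). The matrix proteins CCN1 and CCN2 rose in IRS-2 #6 at 4 h, by 0.97 and 0.94. The CCN2 probe set was dim, with a mean of 4.89 over all arrays, so the size of its difference is uncertain. The STC2 response at 24 h was lower in the IRS-2 than in the IRS-1 clones (difference -0.86, adjusted p 4.29e-12 by limma), higher in IRS-1 #20 than in #10 by 0.64, and higher at 24 h than at 4 h in the IRS-1 clones by 0.62. The CCN2 response in the IRS-2 clones was lower at 24 h than at 4 h by 0.63 (difference -0.63). PAPPA, IGFALS and STC1, which act on these carriers, were not called for IGF-I.

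At the SFM baseline 4 of the 49 axis genes (8.16%) were called between isoforms on their leading probe sets, all higher in the IRS-2 clones, where 2.51% of all probe sets were called higher, and 30 of 49 had an unadjusted p under 0.05, against 65.5% of all probe sets. They were the receptor-binding adaptors GRB10 (0.84, adjusted p 9.62e-29 by limma) and GRB14 (0.96), STC2 (0.61) and CCN1 (0.86). Their levels in the IRS-1 and IRS-2 clones were 9.18 and 10.02 for GRB10, 5.78 and 6.74 for GRB14, 8.27 and 8.88 for STC2 and 9.49 and 10.35 for CCN1. GRB10 differed by -0.13 between the IRS-1 clones and -0.01 between the IRS-2 clones, while CCN1 was 0.98 higher in IRS-1 #20 than in #10. Over the 6 pairs of clones 25 of 294 axis tests (8.5%) were called, from 11 genes and all higher in the later clone in the order #10, #20, #1 and #6. Of all probe sets 0.449% to 3.84% were called higher in these pairs. IGF1R, the receptor itself, was 0.78 higher in IRS-1 #20 and 0.80 higher in IRS-2 #6 than in IRS-1 #10. The IGFBP proteases PLAT and HTRA1 were 0.95 and 0.78 higher in IRS-2 #6 than in IRS-1 #10. In SFM over time GRB14 fell in IRS-1 #20 (difference -0.67, adjusted p 0.000883), and no other axis gene was called.

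**Figure D4:**
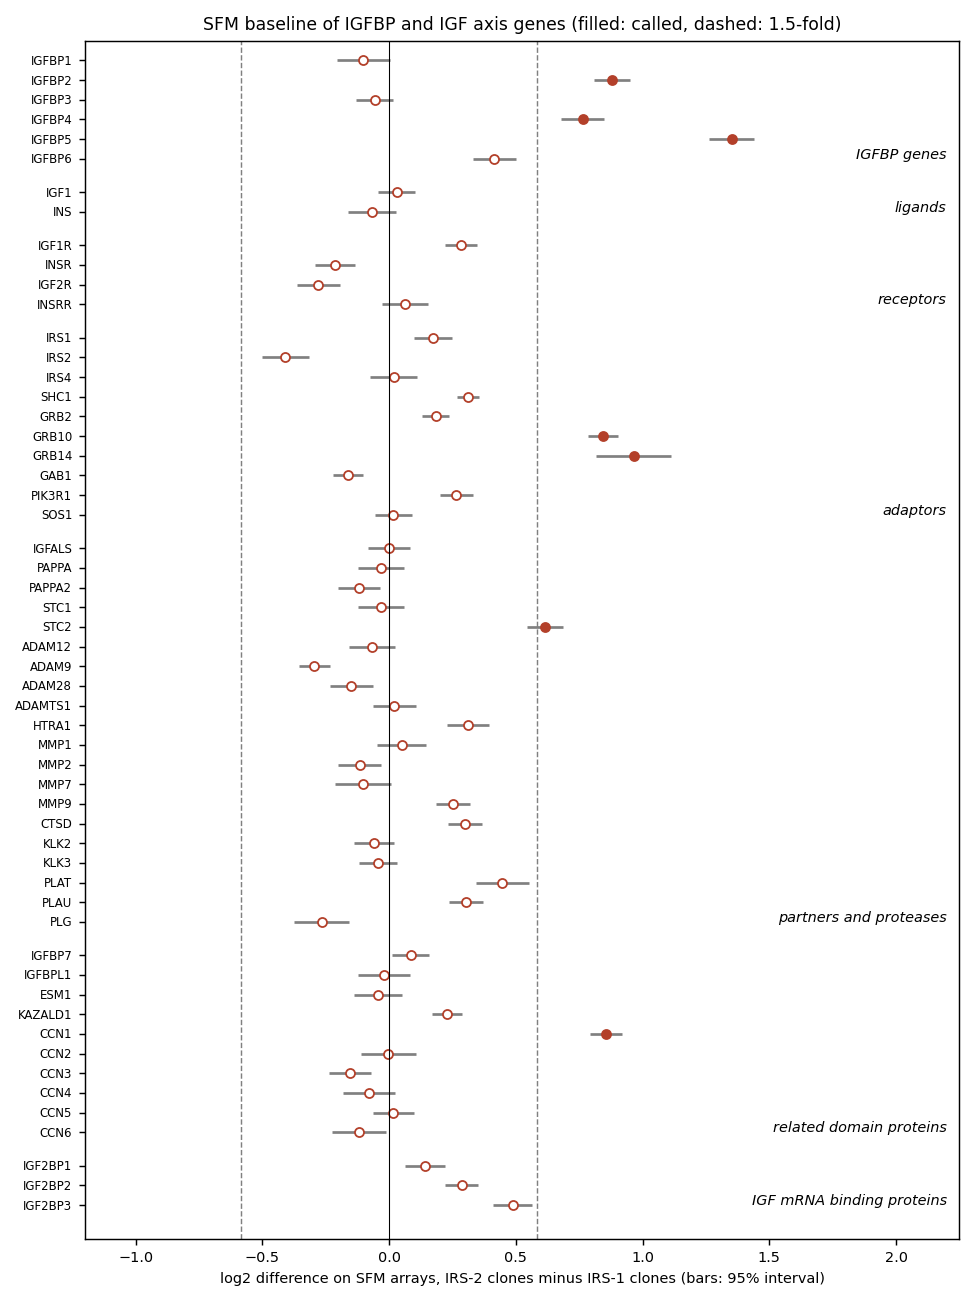
Log2 difference on SFM arrays, clones labelled IRS-2 minus clones labelled IRS-1, for the leading probe sets of the 6 IGFBP genes and 49 IGF axis genes (points limma estimates, bars 95% intervals, filled if called, dashed lines 1.5-fold). IGFBP5 lies farthest to the right at 1.35, and the filled axis genes are GRB10, GRB14, STC2 and CCN1.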

How the data were processed

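Transcript levels of 48 RNA samples came from Affymetrix HG-U133 Plus 2.0 arrays. The deposited table holds log2 values that the authors made with GC-RMA in GeneData Refiner; scanner files were not used here. Versions and the order of these steps are not given in the sources used here. Quantile normalization of this kind gives arrays like medians, so a shift of most transcripts would not be seen. All arrays enter with equal weight, and their number limits the precision.

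Samples were grouped from the labels by clone, treatment and time. Probe sets were named from the platform annotation where it gives a single symbol (41097 of 54675, 1801 had several and 11777 none), and 41043 of them, all 13 members included, matched RefSeq by gene ID. After removal of 62 control probe sets, limma 3.58.1 in R 4.3.3 fitted a mean for each of the 16 groups with a trended variance (32 residual degrees of freedom), and p-values were adjusted over 54613 probe sets within each comparison by Benjamini-Hochberg. A call required an adjusted p under 0.05 and at least 1.5-fold. The SFM baseline averaged 4 h and 24 h. Where clones were compared pairwise, calls were read by direction. The study's methods name a t-test, which was run as an alternative. The members, lists and tests were chosen with earlier results of these data known. Named were all IGFBP genes with every probe set, up to 8 called axis genes a family of comparisons, by largest change, and for IGFBP genes spanning at least 1 log2 unit the 3 genes with the highest r over group means. The script was tested on simulated data. Alternatives were leaving out each letter, the letter as a block, a dim filter, quantile normalization, median centring, variances without trend, other fold thresholds, fits on single comparisons, single SFM times and averaged probe sets per gene.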

Additional observations from a re-analysis of the deposited data

Results flagged for a closer look

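A test of the difference itself passed for 1 member and, among contrasts of the IGF-I response, for 2 IGF axis genes. For the SFM change between clones, 1 of 49 axis genes was called between IRS-2 #6 and IRS-1 #10, against 0.306% of all probe sets. Between IRS-2 #6 and IRS-1 #20 it was also 1, against 1.88%, and these axis genes were not followed here. The change of IGFBP5 (211959_at) from 4 h to 24 h in SFM differed between IRS-2 #1 and IRS-1 #10 by -0.80 on the log2 scale (adjusted p 0.00018 by limma). The IGF-I response of STC2 at 24 h differed by -0.86 between the IRS-2 and IRS-1 clones and by 0.64 between IRS-1 #20 and #10, and in the IRS-1 clones it differed by 0.62 between 24 h and 4 h. The IGF-I response of CCN2 in the IRS-2 clones differed by -0.63 between 24 h and 4 h. The groups held 3 arrays, so no array was tested as an outlier.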

How the results depend on the processing

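The counts of IGFBP calls were 0 (IGF-I), 14 (pairs of clones), 3 (isoform baseline), 3 (time in SFM) and 0 (response differences), and those of axis genes 3 (IGF-I) and 25 (pairs). Without a fold threshold they became 1, 42, 10, 9 and 1, and 25 and 129. The tests behind them numbered 104, 78, 13, 52 and 104, and 392 and 294. By adjusted p alone, 1.62% to 8.01% of all probe sets passed for IGF-I and 19.3% to 54.8% for pairs of clones. The share was 62.6% for the isoform baseline, 1.83% to 20.8% for time in SFM and 0.00183% to 5.99% for response differences. At 2-fold the counts became 6 for pairs, 1 for the isoform baseline and 1 for time, with 1 and 5 for axis genes. Shares of all probe sets at 2-fold are not given here. Leaving out 1 letter gave 4 to 5 axis calls for IGF-I. The replicate block, with the letter as a block, left each count as it was (0, 14, 3, 3, 0, 3 and 25). The letters were not treated as pairs, and 3 of 24 same-letter pairs correlated above 0.1 (range -0.47 to 0.31). The labels do not explain the letters, and such correlations cannot decide whether same-letter samples were set up together. Of single values, IGFBP2 in IRS-2 #6 over IRS-1 #20 went to 0.51 under quantile normalization, below 1.5-fold. The mean of its probe sets put IGFBP5 below 1.5-fold in 4 pairs (0.28 to 0.58), between isoforms (0.46) and over time (-0.43 to -0.12), leaving 8 pair calls, 2 isoform calls and 0 time calls by gene. Directions were compared only for leading IGFBP probe sets, and no called value turned among them. The alternatives compared were the letters left out or as a block, the dim filter, quantile normalization, median centring, untrended variances and averaged probe sets. Axis genes, the other IGFBP probe sets and the remaining alternatives were compared by count alone. The clones, not the arrays, limit any statement about an isoform.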
